A study of Mus musculus with 16 samples.

Results

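The SMG and UPF genes encode the core machinery of nonsense-mediated mRNA decay, and 8 of them were described here in mouse liver: Smg1, Smg5, Smg6, Smg8, Smg9, Upf1, Upf2 and Upf3b. They were taken by name from a table of 55487 genes, by matching Ensembl identifiers to symbols of the GRCm38 mouse genome, and the set was chosen by function with the group levels and fold changes of the same libraries known. All 8 were among the 14553 genes that passed the filter on low counts. RNA sequencing covered 16 liver libraries in 4 groups of 4: intermittent hypoxia, overlap hypoxia, which per the series title combines both kinds of exposure, sustained hypoxia, and room air. All mice were wild type, of the C57BL/6J strain and 12 weeks old, and the exposure is the condition in which their labels differ. Library numbers in the labels run in 4 blocks, 1 per group, so anything that followed these blocks cannot be told apart from the exposure. Oxygen levels and exposure times were not stated in the sources used here. Each library carries a number of its own in the labels, which do not say that it marks a separate animal, so tests measure the spread between libraries.

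Nonsense-mediated decay removes mRNAs on which a ribosome stops too early, and also keeps many normal transcripts low. UPF1, an RNA helicase, gathers at such a stop, UPF2 and UPF3B tie it to the exon junction complex left behind by splicing, and SMG1, a large kinase held in check by SMG8 and SMG9, phosphorylates it. Phosphorylated UPF1 then recruits SMG6, an endonuclease that cuts the mRNA, or SMG5, which helps bring in enzymes that shorten the tail and remove the cap. Transcripts of several of these factors are themselves substrates of the pathway in mammalian cells, and deletion of Upf2 in mouse liver is known to disturb liver development and regeneration.

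Library totals lay between 10940275 counts, in overlap hypoxia replicate 3, and 64789635, in sustained hypoxia replicate 2. Ribosomal RNA made up 25.2% ± 7.0 of counts in intermittent hypoxia, 9.60% ± 5.83 in overlap hypoxia, 2.16% ± 0.696 in sustained hypoxia and 5.22% ± 3.72 in room air (SD, n = 4 each). The mitochondrially encoded share was 8.44% ± 2.32, 4.37% ± 2.17, 1.58% ± 0.124 and 2.11% ± 0.678 in the same order of groups. Both shares were higher in all 4 intermittent hypoxia libraries than in any room air library (exact two-sided permutation p = 0.0286 each, the smallest that 4 against 4 can give; adjusted p = 0.0858 over 6 tests). The protocol text names retina whereas the tissue label is liver: the 4 hepatocyte markers summed to 52100 to 80500 CPM in intermittent hypoxia and 56200 to 82400 CPM in room air, while the 5 photoreceptor markers summed to at most 10.8 CPM in any library, with Rcvrn at 0 in all. All 5 Kupffer cell markers fell in intermittent hypoxia and in overlap hypoxia against room air, with sums of 22.3 to 47.4 CPM and 26.5 to 33.2 CPM, against 67.5 to 122 CPM in room air. Of 4 sinusoidal endothelium markers, 2 fell in overlap hypoxia, with sums of 22.8 to 43.4 CPM against 55.3 to 71.2 CPM in room air, and in intermittent hypoxia 1 rose and 1 fell, with sums of 49.5 to 63.2 CPM. In intermittent hypoxia 1 of the 4 hepatocyte markers fell as well. Of the stellate cell, lymphocyte and erythroid markers tested, 0 rose or fell in any exposure against room air at an edgeR adjusted p under 0.05. Over all genes tested, 18.9% rose and 18.3% fell in intermittent hypoxia, and 420 of 14553 fell in overlap hypoxia. The part of these cell types in the results was not tested. These are bulk samples, in which fewer cells of a type and less RNA per cell cannot be told apart.

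The promoters of Smg1 and Smg8 are shown because these members had the highest and the lowest log2 fold change in intermittent hypoxia against room air, although their proteins sit in 1 complex. Both sequences are from RefSeq (GRCm38.p6) and run from 250 bases before to 50 after the start of the gene, on the minus strand at chr7:118243588-118243887 for Smg1 and at chr11:87086728-87087027 for Smg8. Capitals mark matches, on either strand, to the words searched. These were ACGTG, the core of the site bound by hypoxia-inducible factors, and its variant GCGTG. The others were the E-box CACGTG, which contains the first word, the cyclic AMP response element TGACGTCA, the CCAAT box bound by NF-Y, and the palindromic site of the factor NRF1.
Smg1: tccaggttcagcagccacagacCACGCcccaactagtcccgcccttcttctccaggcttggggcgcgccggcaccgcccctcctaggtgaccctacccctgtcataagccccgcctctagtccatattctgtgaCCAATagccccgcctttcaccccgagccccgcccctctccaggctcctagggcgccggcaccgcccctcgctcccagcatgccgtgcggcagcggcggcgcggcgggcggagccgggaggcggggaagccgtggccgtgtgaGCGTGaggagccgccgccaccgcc
Smg8: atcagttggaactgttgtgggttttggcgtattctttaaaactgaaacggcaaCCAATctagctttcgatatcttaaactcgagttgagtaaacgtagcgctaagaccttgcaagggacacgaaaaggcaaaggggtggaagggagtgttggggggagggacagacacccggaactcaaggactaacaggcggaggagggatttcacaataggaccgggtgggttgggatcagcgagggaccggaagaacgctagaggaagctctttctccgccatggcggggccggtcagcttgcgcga
The Smg1 promoter held GCGTG at 2 places, once as its reverse complement, and CCAAT at 1 place, and 72.0% of its bases were G or C. The Smg8 promoter held CCAAT at 1 place, and 53.3% of its bases were G or C. ACGTG was found in the promoters of Smg5, Smg6 and Smg9, that is in 3 of 8 members, and in 19.6% of all 32851 promoters of that length. GCGTG was found in 4 of 8 (Smg1, Smg6, Smg9 and Upf1) and in 32.4% of all promoters, and CCAAT in 3 of 8 (Smg1, Smg8 and Upf3b) and in 37.4%. The NRF1 site was found in 2 of 8, Smg9 and Upf1, and in 0.971% of all promoters. The E-box and the cyclic AMP response element were in none of the 8 windows, and in 7.15% and 1.79% of all promoters. A match describes these letters, not a bound site. The members that were highest in intermittent hypoxia held no word in common: Smg1, Smg6 and Upf1 held GCGTG and Upf3b did not.

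Smg1, which encodes the kinase that phosphorylates UPF1 (ENSMUSG00000030655, chromosome 7, 118131308 to 118243670, minus strand, GRCm38), differed most among the members. Its level was 30.5, 30.6, 25.9 and 28.5 CPM in intermittent hypoxia replicates 1 to 4, where CPM is the count relative to the scaled size of the library. It was 19.8, 12.3, 17.6 and 16.2 CPM in overlap hypoxia, 6.90, 8.34, 7.64 and 6.20 CPM in sustained hypoxia, and 11.7, 8.77, 12.4 and 7.87 CPM in room air. The intermittent hypoxia libraries stood above all others and spread little, and the overlap hypoxia libraries stood above those of sustained hypoxia but overlapped room air at the edge, since overlap hypoxia replicate 2 at 12.3 CPM was below room air replicate 3 at 12.4 CPM. The log2 fold change was 1.50 (SE 0.17) in intermittent hypoxia against room air, a 2.84-fold difference, 0.69 (SE 0.17) in overlap hypoxia against room air and -0.49 (SE 0.17) in sustained hypoxia against room air. Sustained hypoxia was thus the exposure with the lowest Smg1, with 3 of its 4 libraries below every room air library and replicate 2 within the room air range.

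Smg8, whose product binds SMG1 and restrains it (ENSMUSG00000020495, chromosome 11, 87077732 to 87086774, minus strand), was the 1 member that was lower in intermittent hypoxia on average. It stood at 2.68, 2.77, 3.89 and 4.32 CPM in intermittent hypoxia, 4.86, 3.63, 7.25 and 4.35 CPM in overlap hypoxia, 4.06, 4.54, 5.86 and 5.48 CPM in sustained hypoxia, and 4.97, 4.03, 4.91 and 5.76 CPM in room air. Intermittent hypoxia replicates 1 to 3 were below every room air library, while replicate 4 was not. Its log2 fold change was -0.52 (SE 0.22) against room air, which did not pass the threshold with all libraries. It did without intermittent hypoxia replicate 4 or without overlap hypoxia replicate 3 (-0.68 to -0.43 over all 16 such fits). With replicate number as a block in the fit it passed as well, at -0.54 (SE 0.18), though whether these numbers pair the libraries is not settled. It was 0.00 (SE 0.22) in overlap and 0.02 (SE 0.22) in sustained hypoxia against room air. Smg9, the partner of SMG8 in the complex (ENSMUSG00000002210, chromosome 7, 24399619 to 24422778, plus strand), averaged 3.41 ± 1.53 CPM in intermittent hypoxia, 3.32 ± 0.63 in overlap hypoxia, 2.88 ± 0.799 in sustained hypoxia and 2.20 ± 0.644 in room air (SD, n = 4 each). All its groups overlapped.

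Within libraries, the ratio of Smg1 to Smg8 CPM does not depend on the scaling of the library. It was 11.4, 11.1, 6.67 and 6.60 in intermittent hypoxia, 4.08, 3.38, 2.42 and 3.72 in overlap hypoxia, 1.70, 1.84, 1.3 and 1.13 in sustained hypoxia, and 2.36, 2.18, 2.52 and 1.37 in room air. All intermittent hypoxia libraries had a higher ratio than every other library, and the means were 8.93 ± 2.65, 3.4 ± 0.712, 1.49 ± 0.33 and 2.11 ± 0.512 in the same order of groups (SD, n = 4 each). The ratio of Smg1 to Smg9 was less separated, at 4.64 to 15 in intermittent hypoxia and 2.77 to 6.82 in room air. The ratio sets a transcript with 23.98 kb of exons against one with 3.22 kb: with length and GC content fitted and taken out, the log2 fold changes in intermittent hypoxia against room air were 0.78 for Smg1 and -0.36 for Smg8, closer together than 1.50 and -0.52 without. Smg1 and Smg8 had the highest and the lowest log2 fold change among the members, so a separated ratio follows in part from their choice. The ratio of Smg6 to Smg5, also given below, was separated as well, at 0.558 to 0.648 in intermittent hypoxia and 0.247 to 0.448 in room air. The remaining ratios overlapped between intermittent hypoxia and room air. Upf3b to its paralog Upf3a lay at 0.46 to 1.38 and 0.394 to 0.874 in these 2 groups. Upf1 to Upf2 lay at 3.4 to 6.22 and 2.4 to 5.7. Smg1 to Upf1 lay at 0.995 to 2.08 and 0.632 to 1.32. A ratio does not show which of the transcripts moved.

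**Figure D1:**
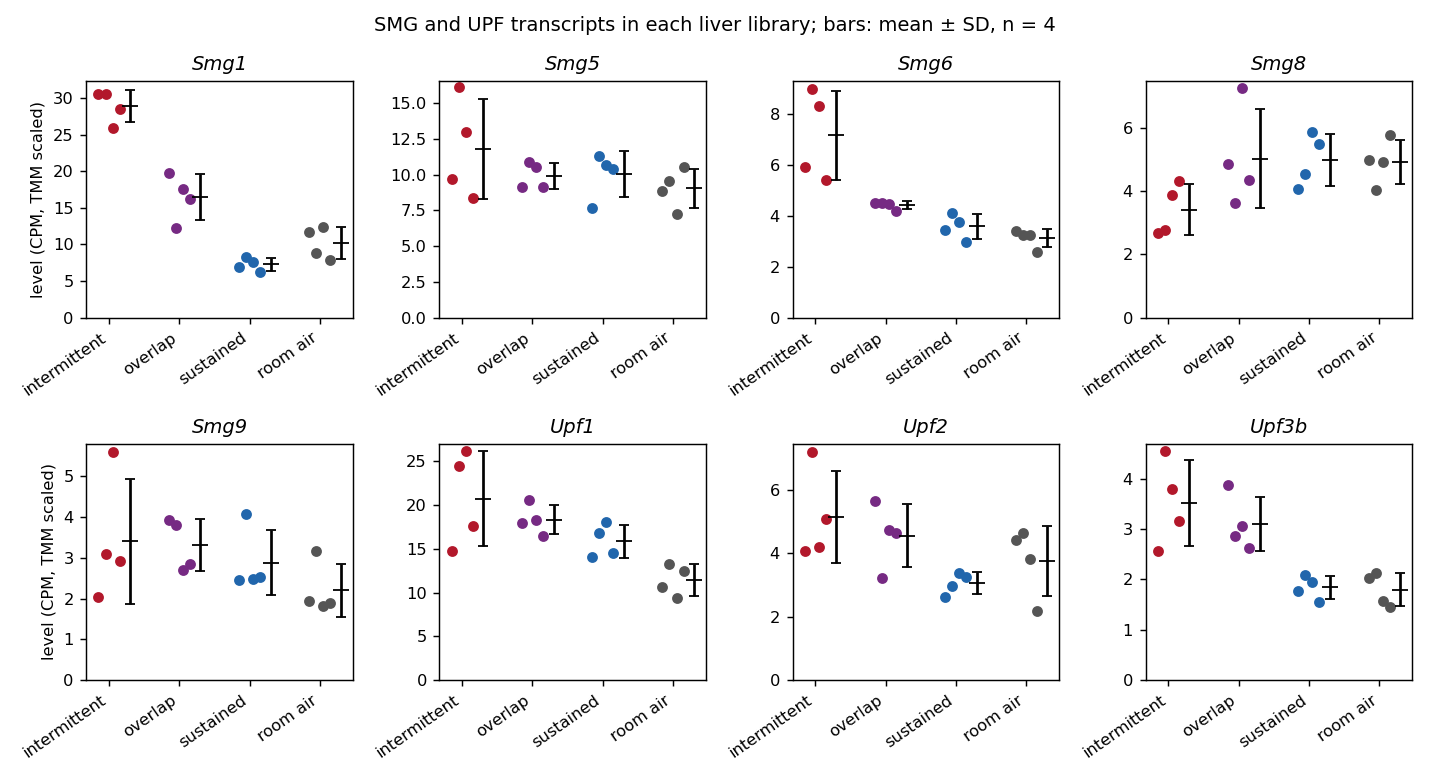
Level of each of the 8 SMG and UPF transcripts in every liver library (y axis, CPM after scaling, from 0) in intermittent, overlap and sustained hypoxia and room air (x axis); points are libraries in the order of their replicate numbers, and bars show the mean ± SD over 4. Smg1 lies at 25.9 to 30.6 CPM in intermittent hypoxia, above all other libraries, whereas the groups of Smg5 and Smg9 overlap.

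Upf1, the helicase at the centre of the pathway (ENSMUSG00000058301, chromosome 8, 70331525 to 70353278, minus strand), was higher than in room air in every library of all 3 exposures. It stood at 14.7, 24.4, 26.1 and 17.6 CPM in intermittent hypoxia, 17.9, 20.5, 18.3 and 16.5 CPM in overlap hypoxia, 14.1, 16.8, 18 and 14.5 CPM in sustained hypoxia, and 10.6, 13.3, 9.37 and 12.5 CPM in room air. The groups did not overlap with room air, but they overlapped with each other, and the log2 fold changes against room air were 0.85, 0.68 and 0.47 (SE 0.17 each) in intermittent, overlap and sustained hypoxia. Intermittent hypoxia replicates 2 and 3 were well above replicates 1 and 4.

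Upf3b, which links UPF2 to the exon junction complex and lies on the X chromosome (ENSMUSG00000036572, 37091678 to 37110322, minus strand), stood at 2.56, 4.54, 3.80 and 3.17 CPM in intermittent hypoxia. It was 3.87, 2.87, 3.06 and 2.63 CPM in overlap hypoxia, 1.78, 2.09, 1.94 and 1.56 CPM in sustained hypoxia, and 2.03, 2.13, 1.57 and 1.46 CPM in room air. All 8 libraries of intermittent and overlap hypoxia were above all 8 of sustained hypoxia and room air, and the log2 fold changes against room air were 0.96, 0.79 and 0.04 (SE 0.23 each) in intermittent, overlap and sustained hypoxia. Its paralog Upf3a, which was not among the 8, averaged 4.12 ± 0.99 CPM in intermittent hypoxia, 3.93 ± 0.635 in overlap hypoxia, 4.18 ± 0.806 in sustained hypoxia and 3.03 ± 0.616 in room air (SD, n = 4 each). Upf3a passed no comparison, with an edgeR adjusted p of 0.111 in intermittent, 0.336 in overlap and 0.414 in sustained hypoxia against room air.

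Upf2, the adaptor between UPF1 and UPF3B (ENSMUSG00000043241, chromosome 2, 5951469 to 6056703, plus strand), averaged 5.13 ± 1.44 CPM in intermittent hypoxia, 4.55 ± 1.0 in overlap hypoxia, 3.05 ± 0.34 in sustained hypoxia and 3.75 ± 1.10 in room air (SD, n = 4 each). The room air libraries ranged from 2.18 to 4.63 CPM and overlapped with every exposure. All intermittent hypoxia libraries were above all of sustained hypoxia, at 4.08 to 7.19 CPM against 2.61 to 3.38 CPM, a log2 fold change of 0.75 (SE 0.24).

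Smg6, the endonuclease (ENSMUSG00000038290, chromosome 11, 74925823 to 75164448, plus strand), stood at 5.93, 8.99, 8.34 and 5.43 CPM in intermittent hypoxia, 4.52, 4.50, 4.46 and 4.18 CPM in overlap hypoxia, 3.46, 4.13, 3.78 and 2.98 CPM in sustained hypoxia, and 3.39, 3.26, 3.25 and 2.59 CPM in room air. Intermittent hypoxia was above overlap hypoxia, and overlap hypoxia above both remaining groups, with no overlap, while sustained hypoxia and room air overlapped. Its log2 fold changes against room air were 1.19 (SE 0.19), 0.50 (SE 0.19) and 0.20 (SE 0.18) in intermittent, overlap and sustained hypoxia.

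Smg5, which encodes the phospho-UPF1 adaptor of the tail-shortening branch (ENSMUSG00000001415, chromosome 3, 88336260 to 88362338, plus strand), ranged over 8.37 to 16.1 CPM in intermittent hypoxia, 9.10 to 10.9 in overlap hypoxia, 7.69 to 11.3 in sustained hypoxia and 7.26 to 10.5 in room air, with overlap between all groups. The ratio of Smg6 to Smg5 CPM within a library was 0.615 ± 0.041 in intermittent hypoxia, 0.448 ± 0.038 in overlap hypoxia, 0.364 ± 0.0668 in sustained hypoxia and 0.355 ± 0.0842 in room air (SD, n = 4 each). The lowest intermittent hypoxia ratio, 0.558, was above the highest of any other group, 0.497.

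The SMG and UPF genes were ranked by level per kilobase of their exons, whereas the ratios above are of CPM without regard to length. Upf1 was the highest of the 9 SMG and UPF transcripts compared in every group, at 4.48 CPM per kilobase in intermittent hypoxia, 3.97 in overlap hypoxia, 3.43 in sustained hypoxia and 2.47 in room air. Smg1, the longest with 23.98 kb of exons, was the 1 whose place moved most: it was the third in intermittent hypoxia at 1.20 CPM per kilobase, the seventh in overlap hypoxia at 0.686, the last in sustained hypoxia at 0.303 and the eighth in room air at 0.425. Smg8, with 3.22 kb, stood at 1.06, 1.56, 1.55 and 1.53 CPM per kilobase in the same order of groups. In room air Smg1, Smg6, Smg9, Upf2, Upf3a and Upf3b lay between 0.370 and 0.686 CPM per kilobase. These values depend on the length assumed, and with the longest transcript in place of all exons Smg8 was the eighth of 9 in intermittent hypoxia.

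In intermittent hypoxia against room air, 4 of 8 members were called higher at an adjusted p under 0.05 over all genes (edgeR quasi-likelihood test): Smg1, Smg6, Upf1 and Upf3b, and in all 4 the groups did not overlap. Over all genes tested, 18.9% were called higher and 18.3% lower, 37.1% in all, and 17.4% had every intermittent hypoxia library above every room air library. The median log2 fold change of the members was 0.73, with 7 of 8 positive, beside 0.03 over all genes, of which 51.7% were positive. Because the members were chosen with these values known, the counts describe them and nothing is read from them. In fits that left out each of the 16 libraries in turn, these calls were kept every time, and the log2 fold changes ranged from 1.39 to 1.61 for Smg1, 1.07 to 1.29 for Smg6, 0.73 to 0.97 for Upf1 and 0.82 to 1.07 for Upf3b. Calls were added in some of them: Smg8 as given above, Smg5 without intermittent hypoxia replicate 4, and Smg9 without room air replicate 2 or intermittent hypoxia replicate 1.

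In overlap hypoxia against room air, 3 of 8 were called higher: Smg1, Upf1 and Upf3b. Over all genes 3.41% were called higher and 6.29% in either direction, and 6.58% had all overlap hypoxia libraries above room air, as did Smg6, Upf1 and Upf3b. The members' median log2 fold change was 0.55, and all 8 were at or above 0, beside 0.03 over all genes. These calls depended on single libraries. Smg1 was not called without room air replicate 2 or 4 or overlap hypoxia replicate 1 or 3, Upf1 not without room air replicate 3 or overlap hypoxia replicate 1 or 3, and Upf3b not in 8 of 16 such fits, those without room air replicate 2, 3 or 4, sustained hypoxia replicate 1, 2 or 3, or overlap hypoxia replicate 1 or 3.

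In sustained hypoxia against room air, none of the 8 was called by edgeR, DESeq2 or limma-voom. In edgeR, 2 of them, Smg1 and Upf1, were at an unadjusted p under 0.05, in opposite directions, where 1672 of all 14553 genes were under it. Over all genes 0.0481% were called in either direction, and 4.6% had every sustained hypoxia library above room air, as Upf1 did. The members' median was 0.09, beside -0.01 over all genes. With length and GC content fitted and taken out, Smg1 stood at -0.24 (SE 0.13) and Upf1 at 0.30 (SE 0.15). In that fit 0 of the 8 were at an unadjusted p under 0.05. The 3 comparisons against room air share their control libraries, so likeness between them is no separate observation.

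**Figure D2:**
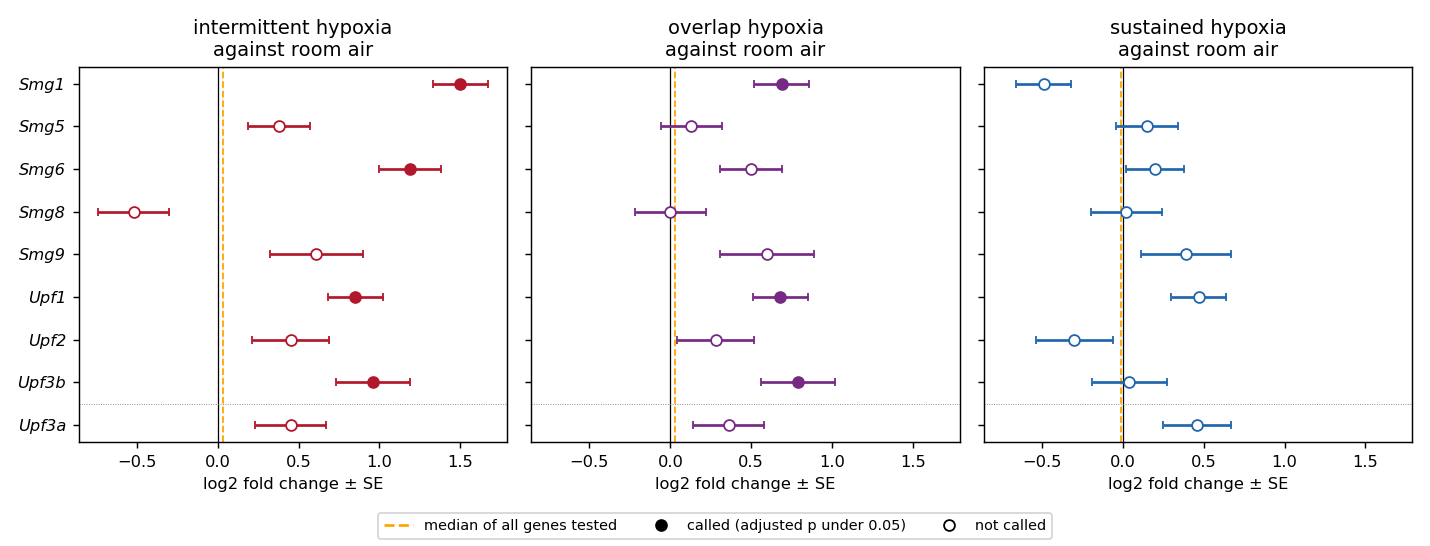
Log2 fold change ± SE (x axis) of the 8 members and, below the dotted line, Upf3a, in intermittent, overlap and sustained hypoxia against room air; filled points were called at an adjusted p under 0.05 and the dashed line is the median of all genes tested. Smg1 lies at 1.50, 0.69 and -0.49 in the 3 panels from left to right, and Smg8 at -0.52, 0.00 and 0.02.

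Between exposures, overlap hypoxia was below intermittent hypoxia in 7 of 8 members, and 2 were called lower: Smg1 fell by 0.81 (SE 0.17) and Smg6 by 0.69 (SE 0.19) on the log2 scale, with no overlap. Over all genes 2.95% were called lower and 6.15% in either direction, and 5.68% had all overlap hypoxia libraries below. The Smg1 call was lost without overlap hypoxia replicate 4, and the Smg6 call without intermittent hypoxia replicate 2 or 3 or overlap hypoxia replicate 1, 2 or 4. Upf1, Upf2 and Upf3b differed by -0.17 each (SE 0.17, 0.24 and 0.22).

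Overlap hypoxia against sustained hypoxia gave 1 call among the 8, Smg1, which was higher by a log2 fold change of 1.18 (SE 0.17), where 0.137% of all genes were called higher and 0.165% in either direction. Smg1, Smg6 (0.30, SE 0.19) and Upf3b (0.75, SE 0.23) had no overlap between groups, against 5.23% of all genes with every overlap hypoxia library higher. Without sustained hypoxia replicate 1 or 4, or overlap hypoxia replicate 1 or 3, Smg1 was not called. In intermittent hypoxia against sustained hypoxia, 4 of 8 were called higher, where 19.5% of all genes were called higher and 38.4% in either direction. They were Smg1 (log2 fold change 1.99, SE 0.17), Smg6 (0.99, SE 0.18), Upf3b (0.92, SE 0.23) and Upf2, all without overlap, as were 17.7% of all genes. The Upf2 call was lost without sustained hypoxia replicate 1 or intermittent hypoxia replicate 2. Upf1, called against room air, was at 0.38 (SE 0.17) here and not called, but it was called without intermittent hypoxia replicate 1 and with upper-quartile scaling (0.46, SE 0.16). Smg8, at -0.54 (SE 0.22), was called lower without sustained hypoxia replicate 1, intermittent hypoxia replicate 4 or overlap hypoxia replicate 2 or 3. Neither set of calls tests whether the members respond differently.

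Ribosomal RNA and gene length moved with these differences. The 4 intermittent hypoxia libraries held 22.1%, 25.6%, 34.8% and 18.5% ribosomal RNA, and the room air libraries 10.2%, 3.43%, 5.69% and 1.57%. Among the intermittent hypoxia libraries, Smg5, Smg6, Upf1 and Upf3b were highest in replicates 2 and 3, which had the most ribosomal RNA, while Smg1 was lowest in replicate 3. With that share as a covariate in the fit, 0 of 8 members were called in intermittent hypoxia against room air, where 77 genes were called in all. In that fit 2 members, and 2500 of all genes, were at an unadjusted p under 0.05. The log2 fold change was then 1.25 (SE 0.32) for Smg1, 0.76 (SE 0.35) for Smg6, 0.66 (SE 0.34) for Upf1 and 0.68 (SE 0.44) for Upf3b. These estimates kept their sign and their errors were larger, 0.32 for Smg1 with the covariate and 0.17 without. Since the shares of intermittent hypoxia and room air do not overlap, share and group cannot be told apart in this comparison.

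**Figure D3:**
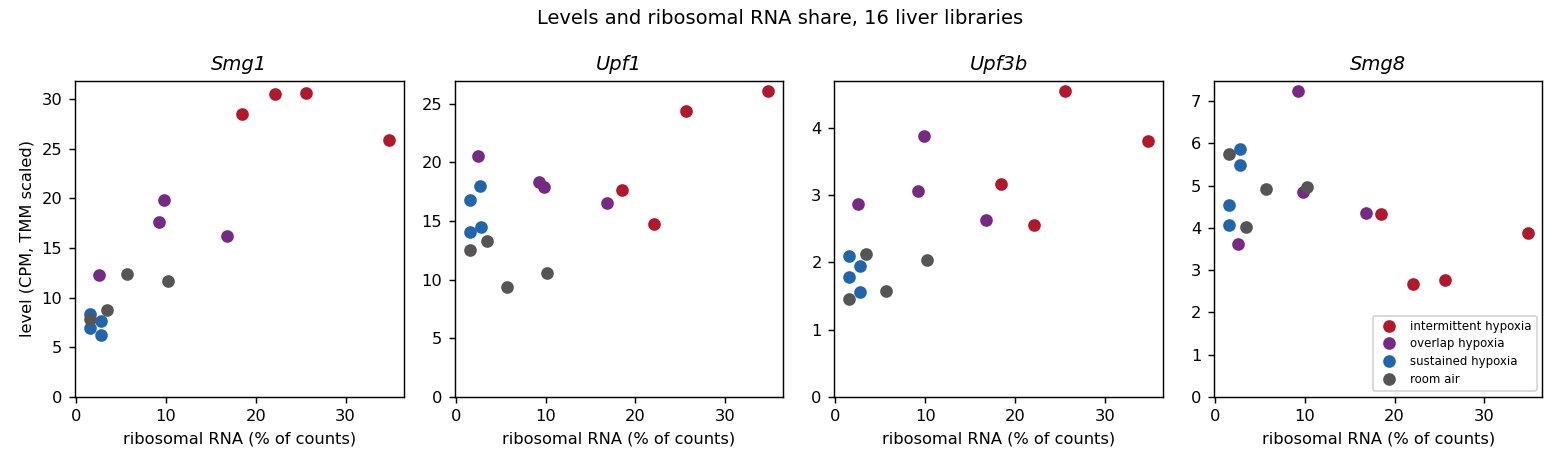
Level in CPM (y axis) of Smg1, Upf1, Upf3b and Smg8 against the percent of counts from ribosomal RNA genes (x axis), 1 point per library, coloured by group. The intermittent hypoxia libraries hold 18.5% to 34.8% ribosomal RNA and those of room air 1.57% to 10.2%, and within intermittent hypoxia Upf1 is highest where the share is highest whereas Smg1 is not.

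Longer genes were higher in intermittent hypoxia in general: the median log2 fold change against room air was -0.24 over genes with 1 to 2 kb of exons, 0.13 with 4 to 8 kb, 0.36 with 8 to 16 kb and 0.70 for the 276 genes with 16 kb or more, of which 51.8% rose. Smg1 with 23.98 kb fell in the last of these classes, Smg6 with 8.45 kb in the class from 8 kb, and Upf1 with 4.62 kb in that from 4 to 8 kb. Upf3b with 3999 bases and Smg8 with 3.22 kb both fell in the class from 2 to 4 kb, whose median was -0.12. When length and GC content were fitted for each library and taken out, Smg1 stood at 0.78 (SE 0.12), Smg6 at 0.69 (SE 0.17) and Upf3b at 1.12 (SE 0.23), and all 3 were called. In that fit 33.1% of all genes were called in either direction. Upf1 stood at 0.32 (SE 0.15) and was not called, and Smg5 turned to -0.32 (SE 0.16), also not called. The differences of Smg1, Smg6 and Upf1 were thus smaller, and that of Upf3b was not. In overlap hypoxia against room air, Upf3b at 0.87 was the 1 call with these offsets, where 4.69% of all genes were called. Smg1 was 0.43 and Upf1 0.35. Without offsets, Upf3b was not called with no filter on low counts or with only both groups fitted. In sustained hypoxia against room air the median without offsets was -0.09 over genes with 8 to 16 kb and -0.20 with 16 kb or more. Whether length or an RNA property tied to it accounts for any of the differences was not tested.

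**Figure D4:**
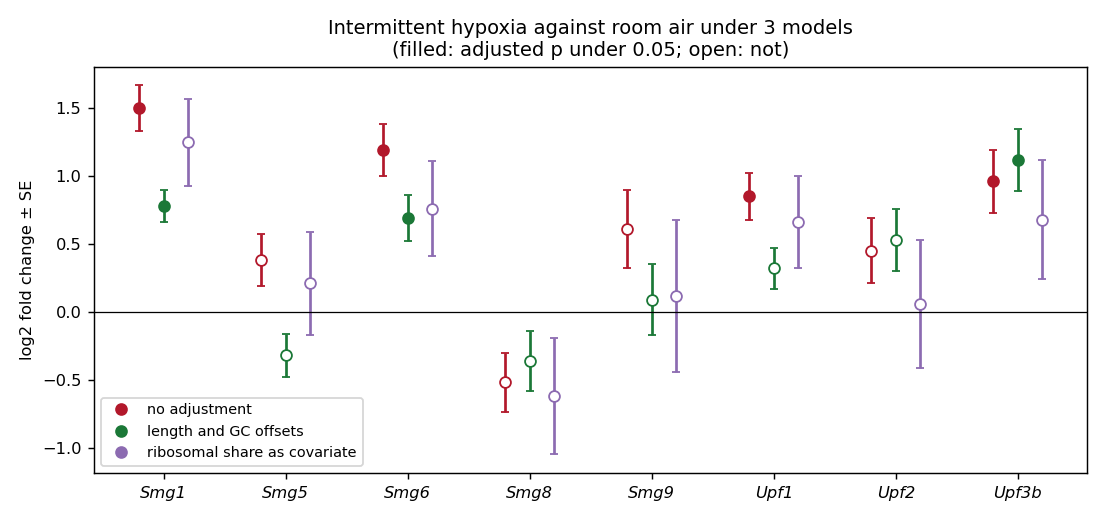
Log2 fold change ± SE (y axis) of the 8 members (x axis) in intermittent hypoxia against room air in 3 models: without adjustment, with length and GC offsets, and with the ribosomal RNA share as a covariate; filled points were called. Smg1 lies at 1.50, 0.78 and 1.25, Upf3b at 0.96, 1.12 and 0.68, and no member is called with the covariate.

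Genes around the pathway were counted in 5 lists of 75 genes, of which 33, or 44.0%, were called in intermittent hypoxia against room air, beside 37.1% of all genes (18.9% higher and 18.3% lower). With the ribosomal share as a covariate 0 of the 75 were called by edgeR, beside 0.529% of all genes. In that fit 15 of the 75, and 2500 of all genes, were at an unadjusted p under 0.05. The calls of this comparison named here thus all end with the covariate, at adjusted p between 0.0836 (Pan3) and 0.56 (Casc3). Of 12 exon junction complex genes, 3 rose and 3 fell in intermittent hypoxia against room air, with a median log2 fold change of 0.10. Acin1, a peripheral component that also acts in splicing, averaged 16.3 ± 3.21 CPM in intermittent hypoxia and 6.39 ± 1.25 in room air (SD, n = 4 each; log2 fold change 1.35, edgeR adjusted p = 3.47e-05). Casc3 (0.81, adjusted p = 0.00194), a core component that promotes decay, and Pnn (0.98, adjusted p = 0.0011) rose too. Eif4a3, the helicase that clamps the complex onto RNA, averaged 17.7 ± 2.12 CPM in intermittent hypoxia and 29.2 ± 1.52 in room air and fell by 0.72 (adjusted p = 0.000122); 16.5% of its sequence words of 50 bases are shared with other genes, which makes its count uncertain.

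Among 13 genes of translation termination and partners of SMG1 or UPF1, 5 rose and 4 fell, beside 18.9% and 18.3% of all genes. The list median was -0.08. With length and GC offsets 6 of the 13 were called, beside 33.1% of all genes. Dhx34, a helicase that promotes UPF1 phosphorylation, averaged 3.28 ± 0.969 CPM in intermittent hypoxia and 0.985 ± 0.332 in room air (log2 fold change 1.73, adjusted p = 0.000371). Mov10, a helicase that works with UPF1, rose by 0.83 (adjusted p = 0.00474; 0.23 with the offsets, adjusted p = 0.329), and Pabpc1, the tail-binding protein that counteracts decay, by 0.67 (adjusted p = 0.00404). Gspt1, the release factor eRF3a, averaged 15.9 ± 4.42 CPM in intermittent hypoxia and 35.9 ± 1.40 in room air and fell by 1.17 (adjusted p = 5.43e-05). Ppp2ca, the catalytic subunit of the phosphatase that removes phosphate from UPF1, fell by 0.57 (adjusted p = 0.000917), and 41.3% of its exons overlap a gene on the opposite strand, which these counts may not separate.

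Of 26 general decay enzymes, 9 rose, 4 fell and 13 passed neither way in intermittent hypoxia against room air, with a median of 0.06. Over all genes 18.9% rose and 18.3% fell. Both subunits of the PAN2-PAN3 deadenylase rose: Pan3 averaged 16.8 ± 4.78 CPM in intermittent hypoxia and 4.44 ± 0.825 in room air (log2 fold change 1.92, adjusted p = 8.05e-06) and Pan2 rose by 1.09 (adjusted p = 0.000179). Lsm1, of the ring that activates decapping, fell by 1.03 (adjusted p = 0.000227), and Wdr61, a subunit of the SKI complex, by 0.82 (adjusted p = 0.000302; 33.9% of its exons overlap a gene on the opposite strand). Of the 8 kinases related to SMG1 and their chaperones, Trrap (1.01, adjusted p = 0.000449) and Telo2 (1.28, adjusted p = 0.00359) rose and Mtor fell by 0.55 (adjusted p = 0.00598), with a median of 0.30. With length and GC offsets, Trrap turned to -0.13 (adjusted p = 0.557), Telo2 stood at 0.76 (adjusted p = 0.0523) and Mtor at -1.31 (adjusted p = 1.82e-05), and Acin1, Dhx34 and Pan2 kept their calls at 0.58, 1.10 and 0.64. Telo2 encodes a chaperone of this kinase family, SMG1 included.

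The last list held transcripts known from other work as substrates of the pathway. Of 16 listed, among them targets such as Atf4, Gadd45a and Gas5, 0 rose and 2 fell in intermittent hypoxia against room air, with a median of -0.13. Zfas1, a small nucleolar RNA host gene, averaged 8.37 ± 1.96 CPM in intermittent hypoxia and 22.9 ± 8.20 in room air and fell by 1.45 (adjusted p = 0.000135), and Snhg1 fell by 0.60 (adjusted p = 0.0442), a call that was lost without room air replicate 3 or 4, sustained hypoxia replicate 4 or intermittent hypoxia replicate 1 or 2, and with length and GC offsets (adjusted p = 0.117). With length and GC offsets 3 of the 16 were called, Zfas1 among them (-1.22, edgeR adjusted p = 0.000452), beside 33.1% of all genes. Whether the list differs from the 37.1% of all genes called without offsets was not tested. Zfas1 and Snhg1 share sequence with other genes, in 11.9% and 7.08% of their words. Gas5 was at -0.30 (adjusted p = 0.0696) and Gadd45a at 0.42 (adjusted p = 0.263), neither of which passed. Steady-state levels do not measure decay rates.

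In overlap hypoxia against room air 7 of the 75 listed genes, or 9.33%, were called, beside 6.29% of all genes: Acin1 (log2 fold change 0.65) among the exon junction genes, Dhx34 (1.19), Mov10 (0.79) and Ppp2r1a among the termination genes and partners, Pan3 (0.91) higher and Lsm1 (-0.66) lower among the decay enzymes, and Telo2 (1.38) among the kinases. Of the substrates, 0 of 16 were called by edgeR, with 1 at an unadjusted p under 0.05 (3320 over all genes), 1 was called by DESeq2 and 0 by limma-voom. The list medians were -0.07, -0.01, 0.09, 0.31 and -0.14 in that order. With length and GC offsets 3 of the 75, or 4.0%, were called, beside 4.69% of all genes. With the ribosomal share as a covariate 1 was, Telo2, or 1.33%, beside 2.48% of all genes. The calls of Acin1, Dhx34, Mov10, Pan3, Lsm1 and Telo2 were each lost without room air replicate 3 and without overlap hypoxia replicate 3, among other libraries. In sustained hypoxia against room air 0 of the 75 were called by edgeR, DESeq2 or limma-voom, with medians between -0.19 and 0.10. By edgeR 7 of the 75, and 1672 of all genes, were at an unadjusted p under 0.05.

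**Figure D5:**
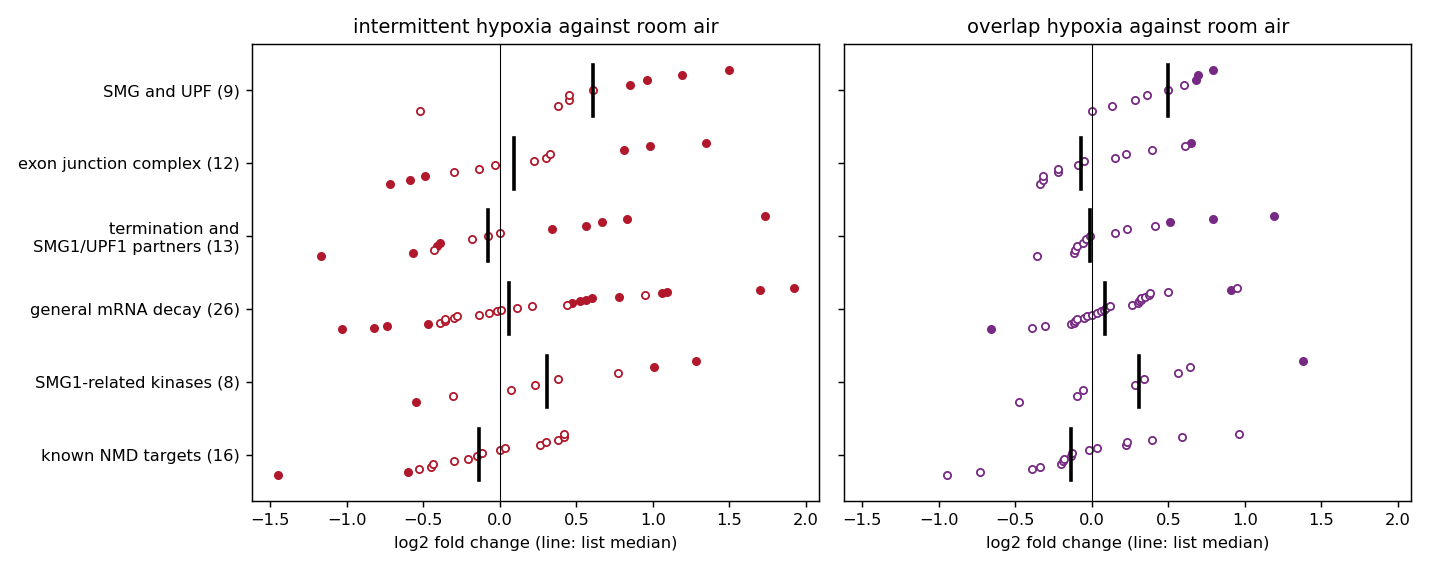
Log2 fold change (x axis) of 9 genes of the SMG and UPF family and of 5 lists around it (rows, with their numbers of genes) in intermittent hypoxia and overlap hypoxia against room air; filled points were called and the vertical lines are list medians. In intermittent hypoxia the median of these 9 genes is 0.61 and those of the other lists lie between -0.13 and 0.30, with calls on both sides of 0 in 4 of these 5 lists and 2 falls among the substrates.

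Across the 16 libraries, every member except Smg8 correlated positively with the mean of the members. Pearson's r with the mean of the standardised log2 levels of all 8, of which each is itself a part, was 0.95 for Upf3b, 0.89 for Smg6 and for Upf1, 0.75 for Smg1, 0.72 for Smg9, 0.71 for Upf2 and 0.68 for Smg5, and -0.32 for Smg8. Upf3a had 0.21. These values describe libraries that share group, depth and composition. After the group means were taken out, deviations of Smg5 and Upf1 had an r of 0.80 and those of Smg6 and Upf3b of 0.78, the highest of all pairs. Deviations of Smg1 had an r of -0.37 with Upf1, -0.27 with Smg5 and -0.19 with Smg9. Their r was 0.59 with Upf2, 0.33 with Smg6, 0.32 with Upf3b and 0.12 with Smg8. These r values within groups were not tested. Among genes outside the family with a mean of at least 5 CPM, those most like the mean of the members were Vwa8, Grina and Cgnl1 (r = 0.94 each), then Casc3 and Tmem198b (0.93 each). In intermittent hypoxia against room air their log2 fold changes were 0.72, 0.94, 1.13, 0.81 and 2.73. Of these, Casc3 belongs to the exon junction complex.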

How the data were processed

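Whole liver RNA was sequenced from TruSeq libraries, per the labels' protocols. The authors deposited 1 table of expected counts per gene; Bowtie 1.3.0, RSEM and GRCm38 are named in the submitters' processing notes, and the strand setting, read length and annotation release were not stated in the sources used here. Symbols, exons and coordinates are from GENCODE on GRCm38. Expected counts were rounded, filtered with filterByExpr, scaled by TMM and fitted over all 16 libraries with edgeR 4.0.16 (R 4.3.3; robust quasi-likelihood, Benjamini-Hochberg adjustment over 14553 genes); SE is the log2 fold change over the root of F. The procedure was tested on simulated data. DESeq2 1.42.0 and limma 3.58.1 were alternatives. No 2 libraries of a group were duplicates (chi-square per degree of freedom 61.1 to 477 over 24 pairs). The members and all gene lists were chosen with earlier results of these data known, so no p-value is given for members. Named genes are the SMG and UPF genes, of which 1 is not reported here; per list, up to 4 genes with the lowest p in intermittent and up to 2 in overlap hypoxia against room air; and the 5 genes with the highest correlation with the members' mean. Ppp2r1a and Atf4 were named outside that rule, after their values were seen. Reads carry no molecular identifiers.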

Additional observations from a re-analysis of the deposited data

Results flagged for a closer look

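Each of the 9 SMG and UPF genes was screened in each of the 4 groups for a library standing apart, by the gap to its nearest neighbour over the range of the group (Dixon's test at the 95% level). Of 36 such groups, 2 were beyond it, where chance gives about 1 in 20. Both were of Smg9: sustained hypoxia replicate 2 stood at 4.08 CPM, with the others at 2.45 to 2.52 CPM, and room air replicate 2 stood at 3.16 CPM, with the others at 1.81 to 1.93 CPM. Their cause was not tested.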

How the results depend on the processing

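Members called in sustained hypoxia against room air stayed at 0 in every setting. With the ribosomal share as a covariate the count was 0 in all comparisons, and 1265 genes were at an unadjusted p under 0.05 in overlap against sustained hypoxia. With length and GC offsets it was 1 in overlap hypoxia against room air and 0 in overlap against intermittent hypoxia, beside 4.69% and 5.53% of all genes. Trrap in intermittent hypoxia against room air turned to -0.13 with them. Upf3b was also lost in overlap hypoxia against room air, leaving 2, with no filter and with only both groups fitted, and upper-quartile scaling added Upf1 in intermittent against sustained hypoxia, giving 5. In overlap against intermittent hypoxia it was 1 with no filter, 1 with limma-voom and 0 with only both groups fitted. In overlap against sustained hypoxia it was 2 with DESeq2 and 2 with limma-voom. The causes were not tested. Leaving out each library gave 4 to 6 in intermittent hypoxia against room air, 0 to 3 in overlap hypoxia against room air, 0 to 2 in overlap against intermittent and against sustained hypoxia, and 3 to 5 in intermittent against sustained hypoxia.

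Whether replicate numbers pair the libraries is not settled by these values. Of 24 same-numbered pairs, 4 had correlated deviations above 0.1 (-0.10 to 0.18). Among libraries of other groups, 8 of 16 libraries correlated best with a library of their own number. With a replicate block, 5 members were called in intermittent hypoxia against room air and against sustained hypoxia, adding Smg8, and the counts were 3, 2, 1 and 0 in overlap hypoxia against room air, against intermittent and against sustained hypoxia, and in sustained hypoxia against room air.

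Counts over all genes were 5404 in intermittent, 916 in overlap and 7 in sustained hypoxia against room air, 895 and 24 in overlap against intermittent and against sustained hypoxia, and 5584 in intermittent against sustained hypoxia. They moved by over 1.5 times with DESeq2 (1466 in overlap and 175 in sustained hypoxia against room air, 1584 and 896 in overlap against intermittent and sustained hypoxia), limma-voom (248, 494 and 1224 in the last 3 of these), no filter (61 in sustained hypoxia against room air, 354 in overlap against sustained hypoxia), the block (21 and 126 in those), and upper-quartile scaling (86 in overlap against sustained hypoxia). With only both groups fitted they were 91 in sustained hypoxia against room air, and 0 (edgeR; 2743 at an unadjusted p under 0.05) and 2 in overlap against intermittent and sustained hypoxia. The covariate gave 77, 361, 4, 4, 0 and 1 in the first order. Without single libraries they ranged over 4292 to 5635, 174 to 1186, 2 to 57, 16 to 1406, 0 to 1547 and 4608 to 5858. Upper-quartile scaling moved the median of all genes in intermittent hypoxia against room air to 0.12. The lowest counts behind a member were 31 for Smg9 and 35 for Upf3b, in overlap hypoxia replicate 3, so small differences in these were not detectable at this depth.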
